A study of Caenorhabditis elegans with 3 samples.

Results

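The genes described here encode RNA-binding proteins that act on maternal mRNAs in the oocyte and early embryo of *Caenorhabditis elegans*. They are *oma-1*, *oma-2*, *mex-1*, *mex-3*, *mex-5*, *mex-6*, *pos-1*, *pie-1*, *spn-4* and *puf-5*. The 10 genes were chosen by name, as the array features whose platform annotation gives 1 of these symbols, and each had 1 feature, so they make up 10 of the 19292 genes and unnamed features tested (all called genes below). RNA from late L4 animals, at the end of the last larval stage, was hybridised on 3 two-colour arrays, with 1 RNA preparation (prep 1, 2 or 3) in channel 2 of each array. Channel 1 held a wild-type mixed reference RNA on every array, and the dyes are not stated. The channels were not exchanged on any array, so any gene-specific effect of channel or dye and the difference between the RNAs cannot be told apart. The labels give neither the strain of the late L4 animals nor the stages mixed in the reference, and do not say whether the preps came from separate cultures. The p-values therefore rest on the variation among preps, possibly technical, and in large part on that of other genes. They leave out any spread of the reference that the arrays shared, and no replicate of the reference is labelled.

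Oocytes and early embryos of the worm are largely silent in transcription, and much of their gene control acts on stored mRNAs. RNA-binding proteins hold maternal mRNAs back from translation, or release them, by binding to their 3′ untranslated regions, so that proteins appear at the right time and in the right blastomere. In hermaphrodites the germ line makes sperm during the last larval stage and turns to oocytes around the adult molt. Of the 10 genes, 7 encode CCCH zinc finger proteins (*oma-1*, *oma-2*, *mex-1*, *mex-5*, *mex-6*, *pos-1* and *pie-1*), *mex-3* a KH domain protein, *spn-4* a protein with an RNA recognition motif and *puf-5* a Pumilio family protein.

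In late L4 RNA, 4 of the 10 genes were lower than in the reference, none was higher and 6 did not pass the test (limma, Benjamini-Hochberg adjusted p under 0.05 over all genes). Among all genes, 10.8% were lower, 12.0% were higher and 22.9% were called in either direction. The 10 genes and the other gene lists were chosen with earlier results of these data known, so such counts and shares are description only. At an unadjusted p under 0.05, 5 of the 10 were lower and 0 higher, against 16.5% lower and 16.5% higher among all genes. The genes that were lower were *pos-1*, *spn-4*, *oma-2* and *mex-6*, at 1.81-fold to 2.50-fold. All 10 means lay below 0, from -1.32 to -0.10 on the log2 scale, with a median of -0.62 beside a median of -0.03 over all genes. Without prep 3 the median was -0.35 and 2 of the 10 were lower. Values are log2 ratios of late L4 to reference, so negative values stand for lower levels in late L4. This direction is likely from the order in which the labels name the RNAs, and is not stated with the values. In whole animals, fewer germ cells of a kind and less RNA per cell cannot be told apart.

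**Figure D1:**
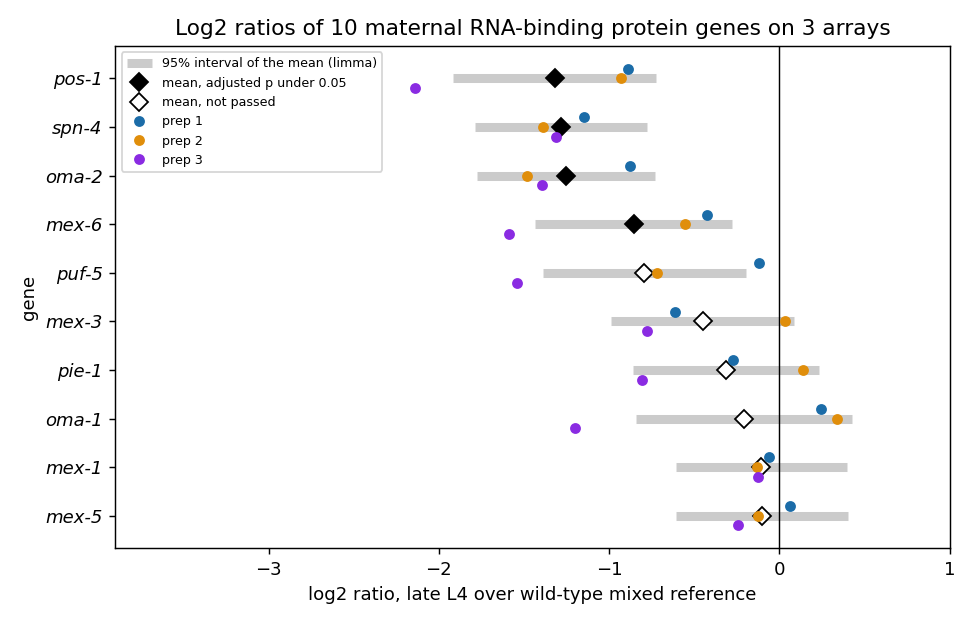
Log2 ratios of late L4 over reference (x axis) for the 10 genes (y axis, ordered by mean). Circles are the 3 preps, diamonds their mean (filled where the adjusted p was under 0.05) and grey bars the 95% confidence interval of the mean from limma. All 10 means lie below 0, and the intervals of *pos-1*, *spn-4*, *oma-2*, *mex-6* and *puf-5* lie wholly below 0.

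*oma-1* (C09G9.6, chromosome IV) and *oma-2* (ZC513.6, chromosome V) encode related proteins that act redundantly in oocyte maturation and keep maternal mRNAs from being translated in oocytes. The log2 ratios of *oma-2* were -0.88 on prep 1, -1.48 on prep 2 and -1.40 on prep 3. All 3 were negative, and *oma-2* was 2.38-fold lower (95% interval 1.66-fold to 3.42-fold), with a mean of -1.25 ± 0.33 (SD, n = 3; limma, adjusted p = 0.00145). The log2 ratios of *oma-1* were 0.24, 0.34 and -1.20 on preps 1, 2 and 3. Preps 1 and 2 stood above 0 and prep 3 below it. The mean was -0.21 ± 0.86 (interval -0.84 to 0.43; limma, adjusted p = 0.69), and it became 0.29 without prep 3 (adjusted p = 0.59).

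The log2 ratio of *oma-1* was above that of *oma-2* on each array, by 1.12, 1.82 and 0.20 on preps 1, 2 and 3. The mean difference was 1.04 ± 0.81 log2 units (n = 3). An exact two-sided sign-flip test gave p = 0.25, which is the smallest p that 3 arrays allow (0.25 adjusted over the 2 pairs of paralogs compared). The probe type is not given in the sources used here, so how far the feature of either paralog picks up the other's transcript is unknown.

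*puf-5* (F54C9.8, chromosome II), a translational repressor of the Pumilio family that acts in late oogenesis, measured -0.12 on prep 1, -0.72 on prep 2 and -1.54 on prep 3 as log2 ratios. All 3 values were negative but spread over 1.42 log2 units. The mean was -0.79 ± 0.71 (interval -1.39 to -0.20) and missed the threshold (limma, adjusted p = 0.053). It passed without prep 1 (mean -1.13, adjusted p = 0.012), and without prep 3 the mean was -0.42 (adjusted p = 0.42). The related *puf-6* and *puf-7*, which act with *puf-5* in oocytes and were named after their values were seen, had means of 0.20 ± 0.78 and 0.28 ± 0.85 and did not pass. Both were positive on preps 1 and 2 and negative on prep 3, at -0.69 and -0.62. How far the feature of either picks up the other's transcript is unknown, as for the *oma* genes.

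*pos-1* (F52E1.1, chromosome V), needed for the fates of posterior blastomeres and for repressing *glp-1* translation there, had the lowest mean of the 10. Its log2 ratios were -0.89, -0.93 and -2.14 on preps 1, 2 and 3. Preps 1 and 2 were close to each other and prep 3 was lower than both. The gene was 2.50-fold lower (95% interval 1.65-fold to 3.77-fold; mean -1.32 ± 0.71, SD, n = 3; limma, adjusted p = 0.00258). Without prep 3 the mean was -0.91 and the call was lost (adjusted p = 0.055).

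*spn-4* (ZC404.8, chromosome V), which acts in spindle orientation and in translational control of maternal mRNAs in the early embryo, differed little between preps. Its log2 ratios were -1.15, -1.39 and -1.31 on preps 1, 2 and 3. They spanned 0.24 log2 units, and *spn-4* was 2.44-fold lower (95% interval 1.72-fold to 3.45-fold; mean -1.28 ± 0.12, SD, n = 3; limma, adjusted p = 0.00089). *oma-2* and *spn-4* were the genes of the 10 that passed without any 1 prep, with adjusted p from 0.00101 to 0.018 and from 0.00189 to 0.010. The third of the genes on chromosome V was *pos-1*. Over all of chromosome V, 13.2% of 3875 genes were lower.

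*mex-5* (W02A2.7, chromosome IV) and *mex-6* (AH6.5, chromosome II) encode similar, partly redundant proteins that set up the asymmetry of the zygote's cytoplasm and keep germ line proteins out of the anterior. The log2 ratios of *mex-6* were -0.43, -0.55 and -1.59 on preps 1, 2 and 3. As for *pos-1*, prep 3 was the lowest. *mex-6* was 1.81-fold lower (95% interval 1.21-fold to 2.70-fold; mean -0.86 ± 0.64, SD, n = 3; limma, adjusted p = 0.033). The call was lost without prep 3 (mean -0.49, adjusted p = 0.32), under median centring of the arrays (adjusted p = 0.059) and under centring with scaling (adjusted p = 0.071).

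The log2 ratios of *mex-5* were 0.06, -0.12 and -0.24, around 0 on preps 1 and 2 and slightly below it on prep 3. Its mean of -0.10 ± 0.15 did not pass (interval -0.61 to 0.40; limma, adjusted p = 0.82). *mex-5* stood above *mex-6* on each array, by 0.49, 0.43 and 1.35 log2 units on preps 1, 2 and 3. The mean difference was 0.75 ± 0.51 (exact two-sided sign-flip test, p = 0.25, again the smallest p possible). The same limit on telling paralogs apart holds as for the *oma* genes.

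*mex-1* (W03C9.7, chromosome II), needed for the placing of germ granules and for *skn-1* control in the early embryo, measured -0.06 on prep 1, -0.13 on prep 2 and -0.12 on prep 3 as log2 ratios. These were the closest together of the 10 genes, with a mean of -0.11 ± 0.04 (interval -0.61 to 0.40; limma, adjusted p = 0.81). The interval of the mean still allows a 1.52-fold lower level in late L4. *mex-3* (F53G12.5, chromosome I), which restricts PAL-1 protein to posterior blastomeres, had log2 ratios of -0.61, 0.04 and -0.78. Preps 1 and 3 were below 0 and prep 2 close to it, and the mean of -0.45 ± 0.43 did not pass (interval -0.99 to 0.09; limma, adjusted p = 0.24). *pie-1* (Y49E10.14, chromosome III), which keeps transcription off in germ line blastomeres, had log2 ratios of -0.27, 0.14 and -0.81. Prep 3 was again the lowest, and the mean of -0.31 ± 0.47 did not pass (interval -0.86 to 0.23; limma, adjusted p = 0.44). The mean of *pie-1* was -0.07 without prep 3 and -0.54 without prep 2, and that of *mex-3* -0.29 and -0.69.

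By kind of RNA-binding domain, 3 of the 7 CCCH genes were lower, against 10.8% of all genes, and 4 did not pass. Their means ran from -1.32 to -0.10. The single gene with an RNA recognition motif, *spn-4*, was lower, and the single KH and Pumilio family genes did not pass. CCCH genes thus lay at both ends of the order of means. In that order, *pos-1*, *spn-4* and *oma-2* had overlapping intervals and lay within 0.07 log2 units of each other. At the other end *mex-1* and *mex-5* lay within 0.01 of each other.

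Prep 3 gave the lowest value of the 3 arrays for 7 of the 10 genes, against 34.3% of all genes. Each prep had its own array, and the array titles end in date-like strings that differ between arrays. Effects of prep, array and any such date cannot be told apart. On prep 3 all 10 log2 ratios were negative, from -2.14 to -0.12, with a median of -1.26. On preps 1 and 2 the medians were -0.35 and -0.34, and 8 and 7 of the 10 were negative. The medians of all genes on preps 1, 2 and 3 were 0.01, -0.10 and -0.06. Among all genes of the same array, *pos-1* lay at the 12.0th, 6.97th and 1.30th percentile on preps 1, 2 and 3, and *oma-1* at the 62.8th, 71.9th and 5.15th. *spn-4* stayed at or below the 7.60th percentile on every array, and *mex-1* lay between the 45.4th and 47.6th. The count of the 10 genes called lower was 5 without prep 1, 4 without prep 2 and 2 without prep 3, fits in which 6.93%, 9.21% and 7.09% of all genes were lower.

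**Figure D2:**
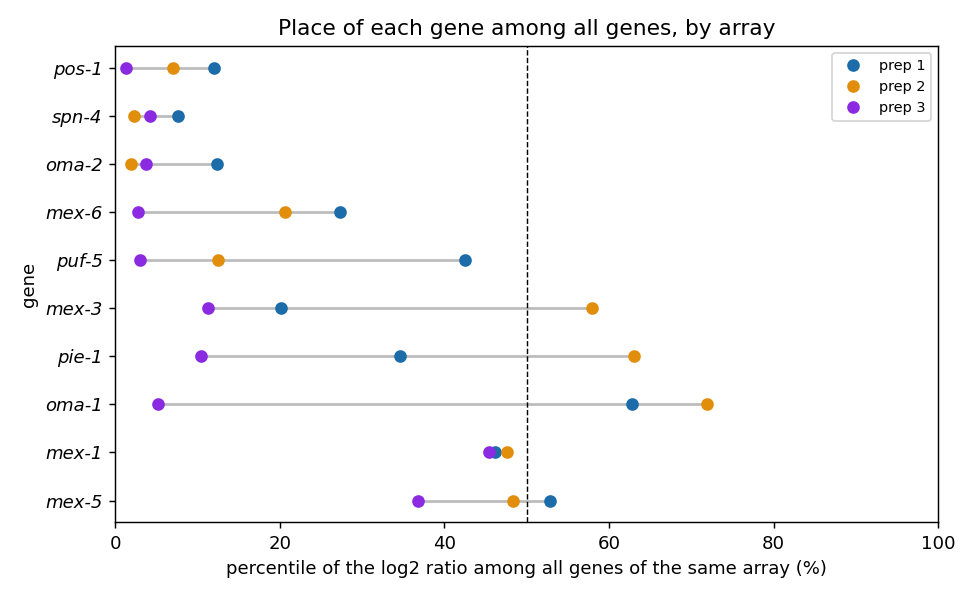
Percentile of each gene's log2 ratio among all 19292 genes of the same array (x axis, in percent), for the 10 genes (y axis) and 3 preps (circles). Grey lines join a gene's lowest and highest percentile, and the dashed line marks the middle of the array. *oma-1* moves from the 62.8th and 71.9th percentile on preps 1 and 2 to the 5.15th on prep 3, while *spn-4* and *mex-1* keep their places.

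The median of the oocyte and eggshell marker genes was also lowest on prep 3, though not every marker was. Of 12 such markers, 6 were lower and 0 higher, against 10.8% lower and 12.0% higher among all genes. Their median was -0.85, and their medians on preps 1, 2 and 3 were -0.66, -0.31 and -1.54. Prep 3 was the lowest array for 9 of the 12. The yolk receptor gene *rme-2*, named after its values were seen, had log2 ratios of 0.66, 0.41 and -1.28, positive on preps 1 and 2 and negative on prep 3 like those of *oma-1*. *cav-1*, a caveolin gene of oocytes, was 6.46-fold lower (mean -2.69 ± 1.15, SD, n = 3; limma, adjusted p = 3.18e-05; mean -2.03 without prep 1), and the eggshell proteoglycan gene *cpg-3* was 4.02-fold lower (-2.01 ± 0.41). On preps 1, 2 and 3 the log2 ratios of *cav-1* were -4.01, -2.17 and -1.89, with prep 3 the highest. Those of *cpg-3* were -2.43, -1.61 and -1.98, with prep 1 the lowest. *egg-1* and *cpg-2*, named after their values were seen, had positive means (0.09 and 0.21) and did not pass. The eggshell genes *perm-4* and *chs-1* had means of -0.97 ± 0.91 and -0.84 ± 0.46, and both calls were lost without prep 3 (adjusted p = 0.37 and 0.23). The count of lower markers was then 4 and their median -0.49. The *perm-4* call was also lost under median centring (limma, adjusted p = 0.066) and under centring with scaling (adjusted p = 0.086). Under centring with scaling *chs-1* did not pass either (limma, adjusted p = 0.051). The lower markers numbered 5 under median centring and 4 under centring with scaling.

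Sperm and embryo markers did not have their lowest median on prep 3, while germ line markers did. The counts of marker genes below stand beside 12.0% higher and 10.8% lower among all genes. Of 12 sperm markers, 12 were higher (11 without prep 3), with medians of 3.72, 2.78 and 3.12 on preps 1, 2 and 3, among them the major sperm protein genes *msp-56* (4.19 ± 0.51) and *msp-33* (3.93 ± 0.33). At the low end of the sperm markers, *msp-49* had a mean of 1.54 ± 0.57 and *spe-9*, a gene of sperm and egg interaction, 1.12 ± 0.81, with the *spe-9* call lost without prep 3 (adjusted p = 0.15). Single *msp* genes are uncertain because of near-identical copies. Of 9 measured germ line markers, 5 were higher and 0 lower, with medians of 1.00, 1.24 and 0.80, and prep 3 was the lowest array for 6 of the 9. The higher genes included the P granule genes *glh-1* (2.16 ± 0.34), *glh-2* (1.93 ± 0.34) and *pgl-3* (1.16 ± 0.46), and the synaptonemal complex gene *syp-1* (1.18 ± 0.35). None of the other 4 passed in the fit of all 3 preps. Their means were -0.12 ± 0.55 for *htp-1*, 0.47 ± 0.24 for *him-3*, 0.59 ± 0.69 for *cgh-1* and 0.61 ± 0.35 for *rec-8*. These 4 genes are named here with their results already known. Of 7 measured markers of embryonic transcription, 3 were lower and 0 higher (2 without any 1 prep), with medians of -0.50, -0.84 and -0.42, and prep 3 was the lowest array for 1 of the 7. *sdz-24* (-1.50 ± 0.59) and *vet-2* (-1.26 ± 0.52) were the lowest of them, and *med-1* (-0.78 ± 0.11) no longer passed when any 1 prep was left out (adjusted p from 0.059 to 0.12). What part the amount of oocyte or embryo RNA in each prep had in the values of the 10 genes was not tested.

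**Figure D3:**
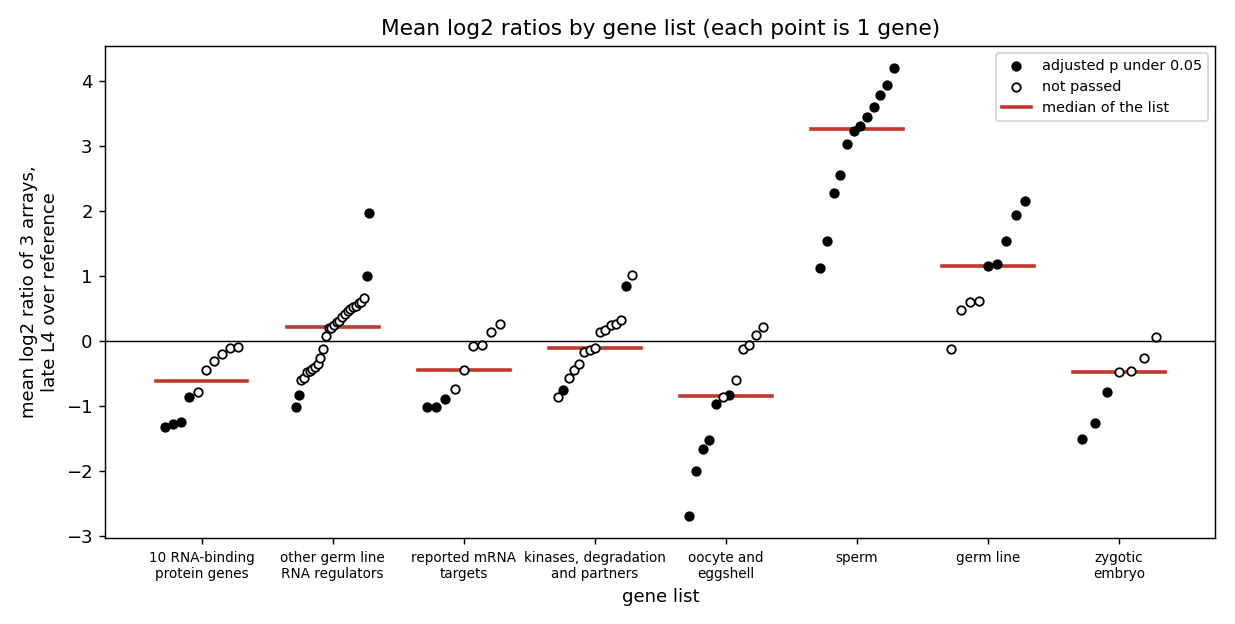
Mean log2 ratio over the 3 arrays (y axis) for the genes of each list (x axis), 1 point per gene, filled where the adjusted p was under 0.05, with the list's median as a red line. The medians are -0.62 for the 10 RNA-binding protein genes, 0.22 for other germ line RNA regulators, -0.85 for oocyte and eggshell markers and 3.26 for sperm markers.

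Of 28 other RNA regulators of the germ line that were measured, 2 were higher, 2 lower and 24 did not pass, no more than the 22.9% called among all genes, with a median of 0.22. The higher genes were *cpb-2*, of the CPEB family (3.90-fold; mean 1.96 ± 0.61, SD, n = 3; limma, adjusted p = 6.68e-05), and *fbf-2*, a Pumilio family gene that keeps germ line stem cells from differentiating (1.00 ± 0.42, with the call lost without prep 2, adjusted p = 0.094). The lower genes were *nos-2*, a Nanos gene of primordial germ cells (-1.02 ± 0.23), and *lin-41*, which acts in oocytes beside the OMA proteins (-0.84 ± 0.20). *nos-2* no longer passed without prep 3 (adjusted p = 0.061), nor did *lin-41* when any 1 prep was left out (adjusted p from 0.051 to 0.12). The log2 ratios of *lin-41* were -0.82, -1.04 and -0.65, with prep 3 the highest. *gld-1*, a repressor of translation in meiotic prophase that was named after its values were seen, averaged 0.50 ± 0.19 and missed the threshold (limma, adjusted p = 0.16). On preps 1, 2 and 3 the list's medians were 0.37, 0.38 and -0.19, and prep 3 was the lowest array for 17 of the 28. Without prep 3, 3 genes of the list were higher and 0 lower. The counts were 2 higher and 1 lower without prep 1, and 1 of each without prep 2.

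Several mRNAs are reported as targets of these proteins. Of 9 measured, 3 were lower, 0 higher and 6 did not pass, against 10.8% lower and 12.0% higher among all genes. Their median was -0.44. Those lower were *nos-2*, which also stands in the list above, *mom-2*, a Wnt gene that signals from the posterior blastomeres (-1.02 ± 0.37), and *pal-1*, a caudal-related homeobox gene held back by MEX-3 (-0.89 ± 0.29). Without prep 3 *mom-2* did not pass (adjusted p = 0.089), and without prep 2 *pal-1* lost its own (adjusted p = 0.12). Of the targets, 3 were lower without prep 1, 2 without prep 2 and 2 without prep 3, where *neg-1*, named after its values were seen, was among the lower genes. The Notch receptor gene *glp-1*, whose translation POS-1 and SPN-4 help to control, averaged 0.26 ± 0.34 and did not pass, and neither did *skn-1*, at 0.13 ± 0.38; both were named after their values were seen.

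Among 15 measured kinases, degradation factors and partners of these proteins, 1 was higher, 1 lower and 13 did not pass. That is no more than the 22.9% called among all genes. Their median of -0.10 turned positive without any 1 prep (0.04, 0.06 and 0.12 without preps 1, 2 and 3). On preps 1, 2 and 3 themselves the list's medians were -0.13, 0.22 and -0.25. Prep 3 was the lowest array for 9 of the 15, against 34.3% of all genes. The counts of higher and lower genes were 2 and 1 without prep 1, 0 and 2 without prep 2, and 2 and 0 without prep 3. *kin-19*, a casein kinase I gene needed for the loss of OMA-1 after the first division, was higher (0.85 ± 0.54; limma, adjusted p = 0.029), a call lost without prep 2 (adjusted p = 0.32). *cks-1*, which encodes a binding partner of cyclin-dependent kinases, was lower (-0.75 ± 0.30; limma, adjusted p = 0.036). That call was lost without prep 2 (adjusted p = 0.12), without prep 3 (adjusted p = 0.21), under median centring (adjusted p = 0.053) and under centring with scaling (adjusted p = 0.055). *mbk-2*, the kinase gene that marks OMA-1 and other maternal proteins for degradation, and *zif-1*, whose product targets CCCH proteins in somatic blastomeres, were named after their values were seen. Their means of -0.18 ± 0.38 and -0.44 ± 0.37 did not pass. *par-1*, chosen likewise, had log2 ratios of 0.13, 2.82 and 0.06, with prep 2 far above the others, and a mean of 1.01 ± 1.57 that did not pass (limma, adjusted p = 0.093) but did so without prep 1 and without prep 3, fits in which prep 2 has more weight.

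**Figure D4:**
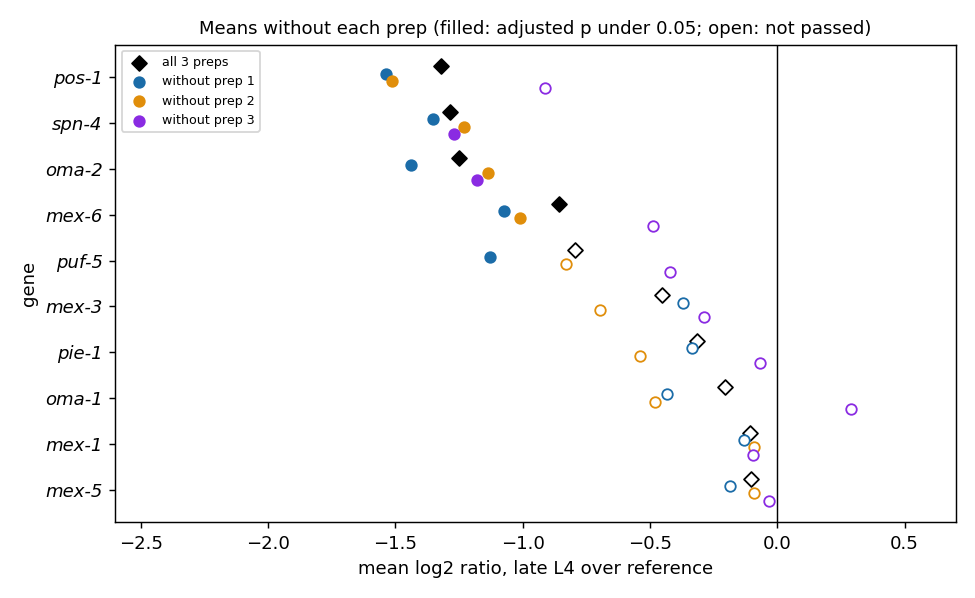
Mean log2 ratio (x axis) of the 10 genes (y axis) over all 3 preps (diamonds) and without each prep in turn (circles), filled where the adjusted p was under 0.05. *spn-4* and *oma-2* keep filled symbols in all 4 fits, *pos-1* and *mex-6* are open without prep 3, and *oma-1* crosses 0 only without prep 3.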

How the data were processed

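The authors deposited 1 log2 value per feature for each of the 3 arrays of 20000 features. Raising 2 to each value gave multiples of 0.001 (within 0.05 of a step) for 100% of them, so they are log2 ratios of linear ratios rounded to 3 decimals. The normalization, dyes and probes were not given in the sources used here. Whether the ratios were centred is unknown; the array medians were 0.01, -0.10 and -0.06. Spot intensities were not used here, so dim spots could not be filtered and signal over background is unknown.

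The platform annotation paired 15655 features with 1 gene symbol, 198 with several and 4147 with none. Entrez IDs led to current symbols for 15569 of them in a RefSeq table for WBcel235. Without a named build for the arrays, only chromosome names are given. The 19736 features with a value on all arrays were averaged per gene and array, which left 19292 genes. Their mean was tested against 0, two-sided, in limma 3.58.1 under R 4.3.3 (lmFit, then eBayes). Each gene had 2 residual degrees of freedom against 12.8 in the prior (prior SD 0.438 log2 units), so the test leaned on the spread of other genes. The number of arrays limits the precision. The procedure was tested on simulated data, drawn independently for each gene from the fitted prior. Such data hold no dye effect, shared reference error or correlation between genes, so the test cannot speak to these.

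Members, gene lists and tests were chosen with earlier results of these data known. All 10 members are named, and from each other list the called genes with the 2 highest and 2 lowest means, filled up by lowest p to 2; *cgh-1*, *egg-3*, *nos-2*, *rme-2* and *zif-1* stand in 2 lists each. Likeness of pattern was not computed, since 3 arrays of 1 group hold no pattern across conditions. Alternatives were median centring, centring with scaling, values on at least 2 arrays, robust eBayes, no moderation, features not averaged, named genes only, stricter thresholds and leaving out each prep.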

Additional observations from a re-analysis of the deposited data

How the results depend on the processing

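No paired analysis was possible because all samples belong to 1 group. For the genes of the other lists the alternatives were chosen after seeing the data. The number of genes called lower was 4, and 0 without moderation of the variance, where 2 degrees of freedom per gene remain, limma called 0 of all 19292 genes and 3 of the 10 genes were lower at an unadjusted p under 0.05, against 12.1% of all genes. Without moderation the adjusted p was 0.18 for *oma-2* (mean -1.25), 0.37 for *mex-6* (-0.86), 0.28 for *pos-1* (-1.32) and 0.15 for *spn-4* (-1.28). Leaving out 1 prep gave 2 to 5 lower genes. The means then ranged from -1.44 to -1.14 for *oma-2*, from -1.07 to -0.49 for *mex-6*, from -1.54 to -0.91 for *pos-1*, from -1.13 to -0.42 for *puf-5* and from -0.48 to 0.29 for *oma-1*, which turned positive (0.29) without prep 3. *mex-6* missed the threshold under median centring (mean -0.81) and under centring with scaling (-0.85), and *puf-5* passed with robust eBayes (mean -0.79, adjusted p = 0.048). The cause of these changes was not tested. The count of higher genes was 0 under all 12 alternatives, and the median of the 10 genes stayed negative, from -0.76 to -0.35. Over all genes, median centring changed the higher calls from 2322 to 2346 and the lower calls from 2092 to 1707, a higher share of 57.9% against 52.6%. What dim signal limits could not be examined without spot intensities.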
